A study of Mus musculus with 18 samples.

Results

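The genotype by treatment interaction asks of each gene whether the difference between the CD4Cre+ and CD4Cre- labels was of the same size in 2 cultures of activated mouse CD4 T cells, labelled Tfh_5 and Tfh_1. The quantity tested was a difference of differences on the log2 scale: Cre-positive minus Cre-negative label in Tfh_5, minus the same difference in Tfh_1. It was computed over every library of these 2 cultures, 12 of the 18 in the series, as 4 groups of 3. All 4 groups came from mice with a Maf gene flanked by loxP sites (Maf fl/fl), with or without a Cre transgene driven by Cd4, whose promoter is active in developing and mature T cells. Naive CD4 T cells were grown for 3.5 days in complete medium on plate-bound antibodies to CD3 and CD28, then sorted by flow cytometry, and polyadenylated RNA was read from its 3′ end. The sources used here do not say what the treatments Tfh_1 and Tfh_5 contained, nor how old or how many the mice were. Nothing there ties a replicate number to a mouse, and a p-value therefore reflects only how far these libraries scatter, which may be technical.

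Maf encodes c-Maf, a basic leucine zipper transcription factor that acts with BATF, IRF4 and STAT3 in helper T cells and is known for driving IL-21 and the T follicular helper (Tfh) program. Cd4-driven Cre removes a floxed gene in the thymus, so that the T cells of such mice grow up without it. Cytokines and antigen receptor signals set the level of c-Maf and of its partners, and an interaction test is a way to ask whether losing a factor has the same outcome in different cytokine settings.

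The level of Maf RNA went against the genotype labels in both cultures. In CPM, counts scaled to an effective library size, the libraries labelled Cre-negative read 0, 0 and 1.89 in Tfh_1 and 0 in each of the 3 Tfh_5 libraries. Libraries labelled Cre-positive read 193, 242 and 181 in Tfh_1 and 369, 313 and 297 in Tfh_5. The groups did not overlap, and in Tfh_5 the level was at least 2401-fold higher under the Cre-positive label, with 3 counts taken as the floor for the whole group that had 0. The sources do not say where the 3′ reads lie relative to the deleted stretch, and whether the genotype labels are exchanged was not tested. Every direction below is therefore that of the libraries as labelled, Cre-positive minus Cre-negative. Where a pair of values or sets of libraries is given for a culture with no other word, the Cre-negative label comes first.

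The 12 libraries held 6437493 to 8836394 counts and 10242 to 12673 genes above 0, and 33.1% to 43.0% of the counts fell on 2 unnamed identifiers. All 15 CD4 T cell genes examined were read in each group. Their sums were higher under the Cre-positive label without overlap, at 3264 to 3690.2 against 4714 to 5259.7 CPM in Tfh_1 and 3465 to 3950.3 against 4322 to 5147 CPM in Tfh_5, and the part of this in the label differences was not tested. Of 16 B cell genes, 6 were at 0 in all 12 libraries, Ms4a1 and Pax5 among them. The 16 summed to as much as 162 CPM, in Cre-negative Tfh_1. CD8 T cell genes summed to as much as 59.9 CPM in the same group. The NK and innate lymphoid list reached 267 CPM, in Cre-negative Tfh_5. Myeloid and erythroid lists summed to less than 10 CPM. Cre-negative Tfh_5 replicate 5 stood apart on the second principal component, at 98.6 against 21.5 and 22.5 for the other libraries of its group, and had the fewest genes above 0.

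A test of the interaction over 10864 genes with edgeR's quasi-likelihood method and Benjamini-Hochberg adjustment found 3 genes past an adjusted p of 0.05. All 3, Lgals3, Mt1 and Fam162a, were lower in Tfh_5 than the difference in Tfh_1 would give, which is 0.0276% of the genes tested. No gene was higher (0%). At an unadjusted p under 0.05, a looser rule used here only to count, 443 genes were lower (4.08%) and 283 higher (2.6%). The same contrast by DESeq2 gave 36 genes, 31 lower and 5 higher, and by limma-voom 5, all lower. Leaving out Cre-positive Tfh_5 replicate 1 raised the count to 12, and leaving out replicate 3 of that group raised it to 7.

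Fam162a was the single gene whose genotype-label difference was confined to 1 culture, by the rule that the interaction and the difference in that culture both pass an adjusted p of 0.05 and the difference in the other has an unadjusted p of 0.05 or more. It encodes a small mitochondrial protein that is induced by low oxygen and has been linked to cell death. In Tfh_5 the libraries labelled Cre-negative read 597, 490.2 and 485 CPM, and those labelled Cre-positive 176, 137 and 174 CPM. In Tfh_1 the levels were 614, 512 and 544 CPM under the Cre-negative label and 563, 483 and 542 CPM under the Cre-positive label. The 3 Cre-positive Tfh_5 libraries lay below all 9 others, and the 2 labels overlapped in Tfh_1. The log2 difference between labels was -1.69 ± 0.19 (SE) in Tfh_5 and -0.07 ± 0.18 in Tfh_1. The interaction was -1.62 ± 0.26, with a 95% interval of -2.15 to -1.08 and an adjusted p of 0.00402. It passed the threshold in all 21 alternative fits, at -1.69 to -1.51, and was confined to Tfh_5 in the 20 of them that also gave the difference within each culture. Without Cre-negative Tfh_5 replicate 5 it was -1.66. In bulk samples such as these, fewer cells of a type and less RNA per cell cannot be told apart.

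**Figure D1:**
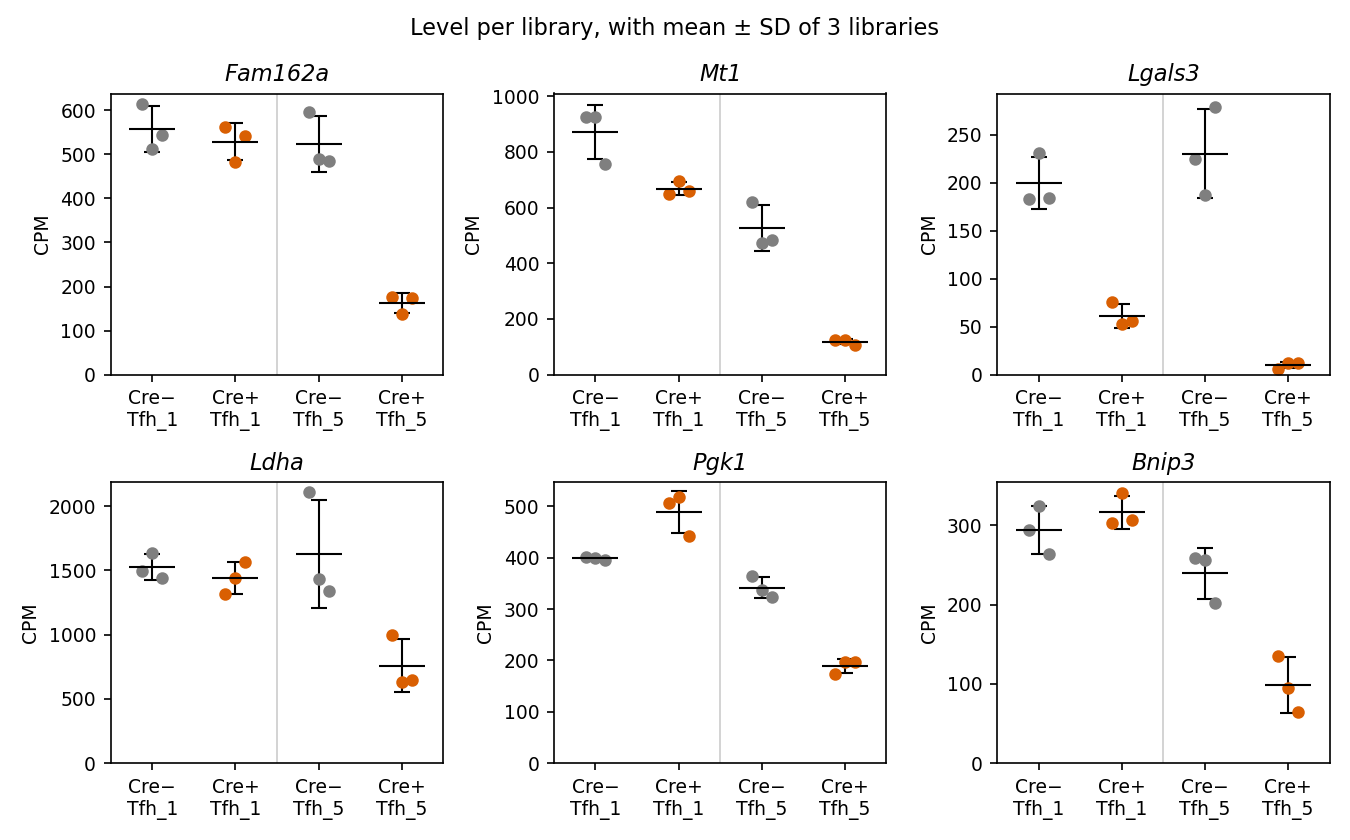
Level of 6 genes in each of the 12 libraries (points, CPM on a linear axis from 0) by genotype label and culture, with the mean and SD of 3 libraries in black. Fam162a, Mt1 and Lgals3 passed the interaction test, and Ldha, Pgk1 and Bnip3 did not. In each panel the 3 Cre-positive Tfh_5 libraries are the lowest 3, with Fam162a at 162 CPM on average against 557, 529 and 524 in the other groups.

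The start of Fam162a is shown because it is the gene confined to 1 culture. The gene lies on the minus strand of chromosome 16 at chr16:36043844-36071561 (GRCm38.p6, the full form of mm10). Below are the 250 bases before its start, chr16:36071562-36071811, from RefSeq, written 5′ to 3′ along the gene. Capitals mark the core of the hypoxia response element, ACGTG or GCGTG on either strand, which the HIF transcription factors read.
Fam162a: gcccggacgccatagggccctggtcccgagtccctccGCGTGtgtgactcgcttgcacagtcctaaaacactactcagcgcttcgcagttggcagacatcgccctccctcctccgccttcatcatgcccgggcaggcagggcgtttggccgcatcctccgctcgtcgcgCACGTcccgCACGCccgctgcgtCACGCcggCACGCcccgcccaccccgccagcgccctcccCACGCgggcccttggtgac
The window held 6 matches. Of the 32851 promoter windows of this length in the table, 38.6% held at least 1 and 0.417% held 6 or more. A match is a stretch of letters and shows no binding. The window held no match to the AP-1 element TGANTCA, present in 6.75% of windows, to the Maf recognition core TGCTGA (16.1%), or to the metal response core TGCNCNC (44.4%).

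Mt1 encodes metallothionein 1, a small cysteine-rich protein that binds zinc and copper and is switched on by metals through MTF1 and by glucocorticoids. In Tfh_5 its level was 620.3, 474 and 485 CPM under the Cre-negative label and 124, 123 and 108 CPM under the Cre-positive label. Tfh_1 libraries read 925, 926 and 758 CPM and 650.2, 695 and 659 CPM, in the same order. The labels did not overlap in either culture, and Mt1 was lower in Tfh_5 than in Tfh_1 under each label. Its log2 difference was -2.15 ± 0.18 in Tfh_5 against -0.38 ± 0.18 in Tfh_1, where the unadjusted p was 0.04 and the adjusted p 0.526. The interaction was -1.77 ± 0.25 (95% interval -2.29 to -1.26, adjusted p 7.52e-04). Mt1 was therefore classed as unresolved, past the unadjusted threshold in Tfh_1 and not the adjusted one. It passed the interaction test in all 21 alternatives, and of the 20 that could be classed it was confined to Tfh_5 in 7 and unresolved in 13.

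Mt2, the neighbouring metallothionein gene on chromosome 8, had the same order of levels as Mt1 but wider spread. Its Cre-positive Tfh_5 libraries read 126, 61.7 and 34 CPM, against 398, 323 and 315 CPM under the Cre-negative label. Tfh_1 libraries read 616, 456 and 415 CPM under the Cre-negative and 459, 365 and 325 CPM under the Cre-positive label, and overlapped. Its interaction of -1.85 ± 0.45 did not pass the test (adjusted p 0.272), while the difference in Tfh_5, -2.22 ± 0.33, did (adjusted p 4.56e-04). Counts of Mt2 were fractional in 8 of the 12 libraries, so some of its reads may be shared with another gene.

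Lgals3 encodes galectin-3, a lectin that binds β-galactosides on glycoproteins and dampens T cell receptor signalling. Its level differed between labels in both cultures, to an unequal extent. Libraries labelled Cre-negative read 183, 231 and 184 CPM in Tfh_1 and 225, 187 and 279 CPM in Tfh_5, 2 groups that overlapped. Under the Cre-positive label the level was 75.7, 53 and 55.7 CPM in Tfh_1 and 6.17, 12.2 and 12.1 CPM in Tfh_5, without overlap. The log2 difference was -1.70 ± 0.27 in Tfh_1 (adjusted p 9.41e-04) and -4.50 ± 0.31 in Tfh_5 (adjusted p 2.59e-10). The interaction was -2.80 ± 0.39 (95% interval -3.59 to -2.01, adjusted p 7.52e-04). Of the 21 alternatives, limma-voom alone did not keep the call, with an adjusted p of 0.0927, the highest of a range that began at 1.98e-08. Without Cre-negative Tfh_5 replicate 5 the interaction was -2.63 for Lgals3 and -1.82 for Mt1.

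Within each culture the genotype label was tested in the same fit. In Tfh_5, 171 genes were lower (1.57% of those tested) and 103 higher (0.948%) under the Cre-positive label, and in Tfh_1, 21 were lower (0.193%) and 43 higher (0.396%). The 2 differences use separate libraries. The Tfh_1 count depended on single libraries: it was 29 without Cre-negative Tfh_1 replicate 5, 42 without Cre-positive Tfh_1 replicate 1 and 114 without Cre-negative Tfh_5 replicate 2, a library of the other culture that enters the same fit.

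A call in 1 culture was not, by itself, a difference between cultures. Of 231 genes past the threshold in Tfh_5 and not in Tfh_1, 207 had the same sign in Tfh_1, 98 had an unadjusted p under 0.05 there, and 2, Fam162a and Mt1, passed the interaction test. Over all 10864 genes, 998 had an unadjusted p under 0.05 in Tfh_1, and 726 had an unadjusted interaction p under 0.05. The share of all genes with the same sign in both cultures was not counted. At the unadjusted level 114 of the 231 differed between cultures, 92 lower and 22 higher, and 117 did not reach that level. The interaction and the difference within a culture share that culture's libraries, so these counts are not independent of the calls. Of 21 genes called in Tfh_1 and not in Tfh_5, 19 had the same sign in Tfh_5, none passed the interaction test, and 12 had an unadjusted interaction p under 0.05. The 43 genes called in both cultures all had the same sign, and 1 of them, Lgals3, passed the interaction test. These shares are read with the noise of the design in view: for the 7248 genes at 10 CPM or more in the highest group, the median SE was 0.72 log2 units for the interaction and 0.51 for the difference within either culture.

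**Figure D2:**
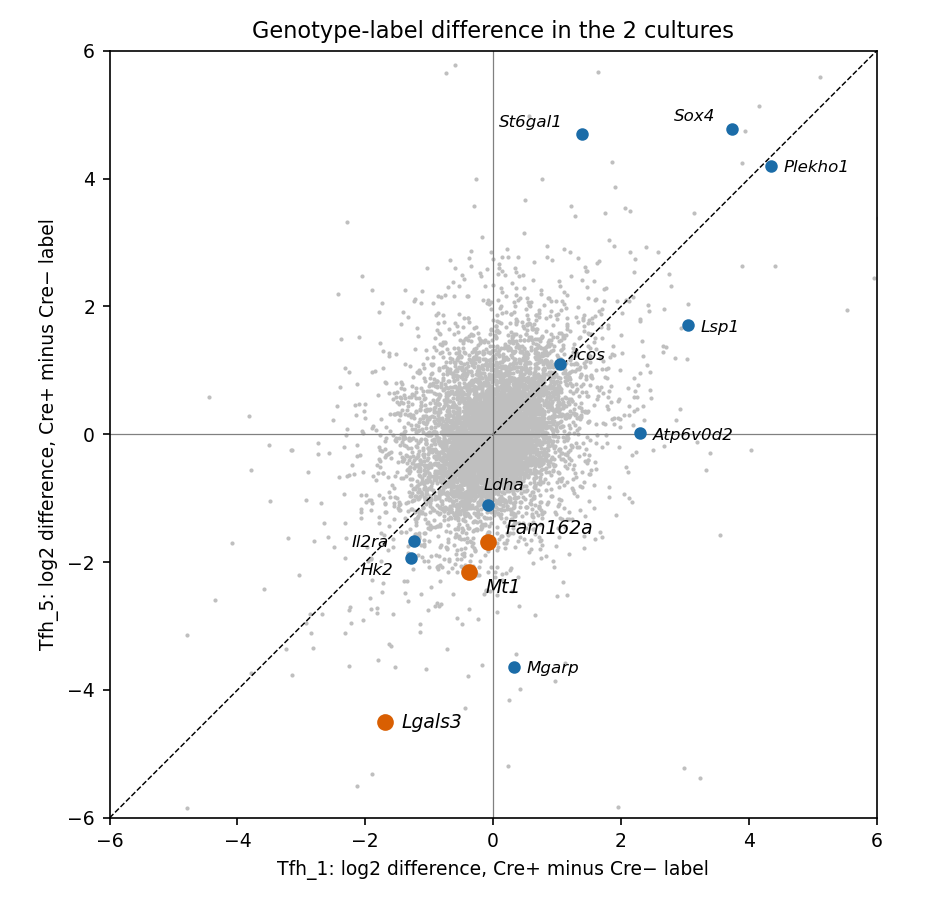
Log2 difference between genotype labels (Cre-positive minus Cre-negative) in Tfh_1 (horizontal axis) and Tfh_5 (vertical axis) for 7210 genes at 10 CPM or more in the highest group, with 38 more outside the axes. The dashed line marks equal differences; orange points passed the interaction test and blue points are other genes named in the text. Fam162a, at -0.07 and -1.69, lies far from the line, and Plekho1, at 4.35 and 4.20, close to it.

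A list of genes of glycolysis and the hypoxia response, chosen with earlier results of these data known, was counted as a whole. Some of its members are described below. Such genes turn glucose into lactate and are switched on together by HIF-1 and by mTOR signals in activated T cells. Of 30 listed genes 29 were tested, and 26 had a negative interaction, against 5398 of 10864 over all genes. The 29 had a median of -0.73 log2 units, against 0.01 over all genes. None passed the adjusted threshold; 10 were lower at the unadjusted threshold and none higher, against 4.08% and 2.6% of all genes. In Tfh_5 the median difference between labels was -0.58, with 9 genes called lower, and the median over all genes was 0 with 1.57% called lower. In Tfh_1 the list's median was -0.0014, with 1 called lower, against -0.02 and 0.193% over all genes. Over the 21 alternatives, a count added after the data were seen, the median ran from -0.80 to -0.46 and the number lower at the unadjusted threshold from 7 to 15. The median of -0.80 came from limma-voom. Leaving out Cre-positive Tfh_5 replicate 6 gave the median of -0.46 and the count of 7, and leaving out replicate 3 of the same group gave the count of 15.

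Pgk1, which runs an ATP-yielding step of glycolysis, had the smallest interaction p of this list. It read 364, 338 and 323 CPM under the Cre-negative and 174, 198 and 197 CPM under the Cre-positive label in Tfh_5. In Tfh_1 the order was reversed, at 401, 399.7 and 397 CPM and 506, 518 and 442 CPM. No library of one label overlapped the other in either culture, and the Tfh_1 difference of 0.29 ± 0.18 did not pass the test. Its interaction was -1.14 ± 0.25, with an adjusted p of 0.156.

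Bnip3, a receptor that marks mitochondria for removal, read 259, 257 and 203 CPM against 135, 94.3 and 65.1 CPM in Tfh_5, a difference of -1.29 ± 0.23 that passed the test there (adjusted p 0.00141). In Tfh_1 it read 294, 325 and 264 CPM against 303, 341 and 306 CPM, with overlap. Ldha, the lactate dehydrogenase subunit that ends aerobic glycolysis, fell from 1628 ± 419.6 to 757 ± 206 CPM (SD, n = 3) in Tfh_5 and read 1524 ± 99.5 and 1441 ± 122 CPM in Tfh_1. The interactions were -1.39 ± 0.32 (adjusted p 0.198) for Bnip3 and -1.02 ± 0.27 (adjusted p 0.293) for Ldha, and neither passed. Counts of Pgk1, Ldha and Bnip3 were fractional in all 12 libraries, so reads may be shared with other loci.

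Pfkp, a phosphofructokinase that commits sugar to glycolysis, was at 276 and 139 CPM in Tfh_5 and 249 and 248 in Tfh_1 under the Cre-negative and Cre-positive labels. Slc16a3, the lactate exporter MCT4, was at 269 and 142 CPM in Tfh_5 and 302 and 307 in Tfh_1. Both were called lower in Tfh_5. Hk2, the hexokinase that traps glucose in the cell, was called lower in both cultures, from 223 to 91.2 CPM in Tfh_1 and from 124 to 32.6 in Tfh_5, and its interaction of -0.64 ± 0.34 did not pass (unadjusted p 0.068). The glycolytic enzymes Eno1, Pkm and Gapdh had interactions of -0.15, -0.23 and -0.39, none below an unadjusted p of 0.05. Hif1a itself, the oxygen-regulated subunit of HIF-1, was at 247 and 197 CPM in Tfh_5 and was not called in either culture.

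**Figure D3:**
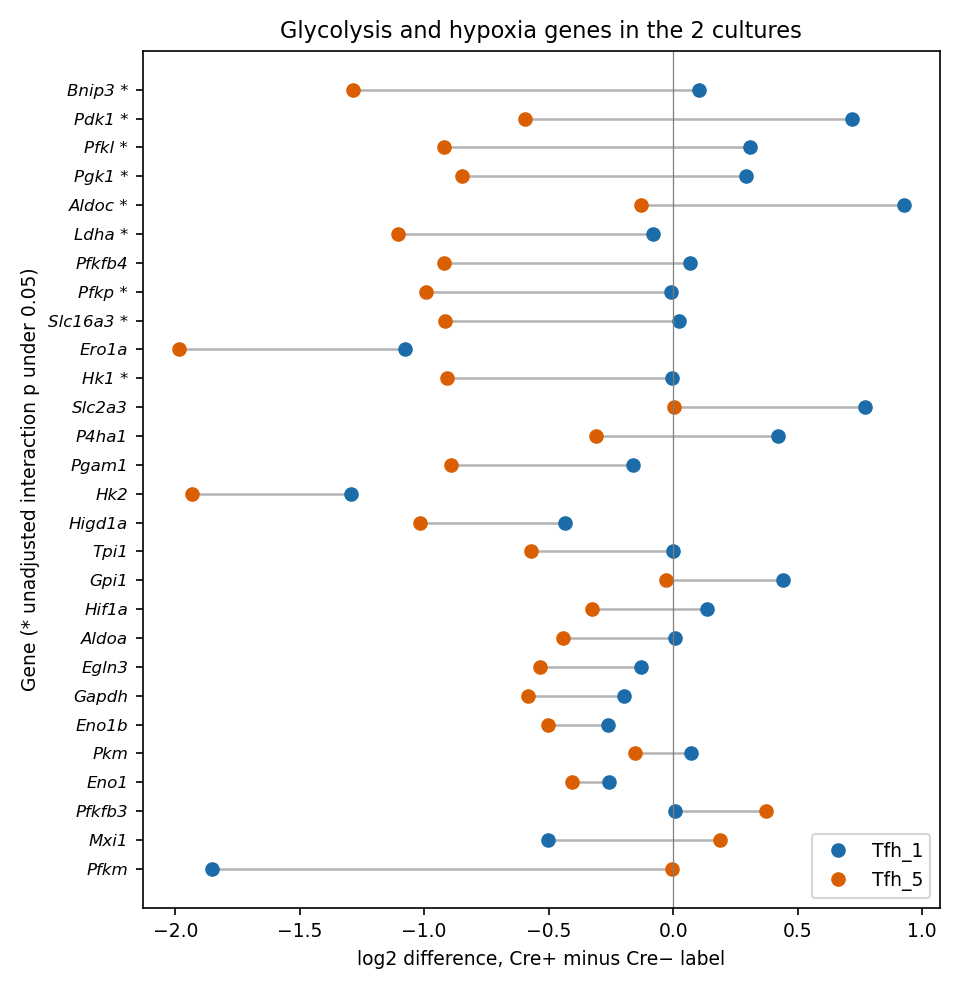
Log2 difference between genotype labels in Tfh_1 (blue) and Tfh_5 (orange) for 28 tested genes of the glycolysis and hypoxia list, joined by a line per gene; Vegfa, with 0 counts in Cre-positive Tfh_5, is not drawn. Asterisks mark an unadjusted interaction p under 0.05. The orange point lies to the left of the blue for 25 of the 28 genes.

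Of the 154 genes called lower in Tfh_5 and not called in Tfh_1, 2 passed the interaction test, and 4 that did not were Hilpda, Ndrg1, Mgarp and Adm, which are not on that list; they were named for a small interaction p. Hilpda, which coats lipid droplets, read 231, 157 and 185 CPM against 65.9, 44.2 and 25.9 CPM in Tfh_5 and 353, 330.0 and 339 CPM against 225, 272 and 229 CPM in Tfh_1, with an interaction of -1.58 ± 0.36 (adjusted p 0.168). Ndrg1, a stress-induced protein of vesicle traffic, was at 75.8 ± 8.38 and 16.5 ± 12.1 CPM (SD, n = 3) in Tfh_5 and had an interaction of -1.97 ± 0.48 (adjusted p 0.243). Mgarp, a mitochondrial transport protein, was at 31.4, 39.2 and 33.9 CPM and 5.47, 2.95 and 0 CPM, with an interaction of -3.98 ± 0.92 (adjusted p 0.248). Adm, the vessel-dilating peptide adrenomedullin, read 4.86, 0.131 and 8.29 CPM against 0.14, 0 and 0 CPM in Tfh_5, groups that overlapped, with 1 count in all over the Cre-positive group. In Tfh_1 it read 2.16, 10.2 and 3.52 CPM against 21, 16.8 and 23.2 CPM.

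The genes nearest to the threshold were Ly6a and Tgm2. Ly6a, the GPI-anchored surface protein Sca-1 that interferons induce, read 660.1, 661 and 682 CPM under the Cre-negative and 289.8, 295 and 283 CPM under the Cre-positive label in Tfh_5. In Tfh_1 it read 603, 815 and 651 CPM and 764, 690.2 and 655 CPM, with overlap. The interaction was -1.23 ± 0.24 (adjusted p 0.0699), and it passed in 5 of 21 alternatives. Its counts were fractional in 11 of the 12 libraries.

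Tgm2, transglutaminase 2, which crosslinks proteins, read 226, 229 and 239 CPM against 55.6, 44.4 and 41.4 CPM in Tfh_5 and 393, 379 and 454 CPM against 273, 247 and 169.9 CPM in Tfh_1. The labels did not overlap in either culture, and the interaction was -1.46 ± 0.30 (adjusted p 0.1). Other genes called lower in Tfh_5 alone, with interactions that did not pass, were Ier3 (-1.44 ± 0.36), an early response gene, S100a10 (-1.02 ± 0.27), a partner of annexin A2, the actin bundler Espn (-1.77 ± 0.46), AW112010 (-1.73 ± 0.39) and the Polycomb protein gene Cbx7 (-4.40 ± 1.15). Ier3, S100a10 and Espn were also lower in Tfh_1, by -0.50, -0.41 and -0.87. Their unadjusted edgeR p there was 0.0583, 0.0397 and 0.0119, and the labels did not overlap for Ier3 and Espn. AW112010 and Cbx7 had Tfh_1 differences of 0.33 and 0.42, with overlap. In Tfh_5 the labels overlapped for Cbx7, at 1.22, 11.2 and 28.5 CPM against 0.702, 1.6 and 0.24 CPM. Its highest value came from Cre-negative replicate 5, the library that stood apart. Dusp28, an atypical phosphatase, read 6.32, 14.9 and 27.2 CPM under the Cre-negative label in Tfh_5 and 0 in all 3 Cre-positive libraries, at least 119.9-fold lower. The same gene ran from 0.301 to 9.02 CPM over the 6 Tfh_1 libraries.

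St6gal1, a sialyltransferase that caps N-glycans, had an interaction above 0 and was called higher in Tfh_5 alone. It read 3.28, 1.97 and 0 CPM under the Cre-negative and 60.5, 21.6 and 59.3 CPM under the Cre-positive label in Tfh_5, against 14.7, 22.8 and 18 CPM and 53.9, 59.9 and 31.9 CPM in Tfh_1. Under the Cre-positive label the 2 cultures overlapped, and under the Cre-negative label Tfh_5 lay below Tfh_1. The interaction of 3.31 ± 0.87 did not pass (adjusted p 0.293).

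No gene was confined to Tfh_1. The closest by interaction p among genes called in that culture alone were Cd52 and Atp6v0d2. Atp6v0d2, a subunit of the proton pump that acidifies lysosomes, read 20.5, 17.5 and 16.5 CPM under the Cre-negative and 101, 84.9 and 82.9 CPM under the Cre-positive label in Tfh_1. In Tfh_5 it read 45, 28.9 and 36 CPM and 37.3, 21.4 and 52.4 CPM, with overlap. The log2 difference was 2.30 ± 0.37 in Tfh_1 (adjusted p 9.41e-04) and 0.02 ± 0.35 in Tfh_5, and the interaction -2.29 ± 0.51 (adjusted p 0.156). DESeq2 gave an adjusted p of 0.00833 for the same contrast, and over the 21 alternatives it ran from 0.00833 to 0.582.

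Cd52, a short GPI-anchored peptide on lymphocytes, had differences of opposite sign in the 2 cultures. It was at 764 ± 151 and 1307 ± 196 CPM (SD, n = 3) in Tfh_1 under the Cre-negative and Cre-positive labels, and at 1089 ± 65.3 and 828 ± 137 CPM in Tfh_5. The rise in Tfh_1 passed the test (adjusted p 0.045) and the Tfh_5 difference of -0.40 ± 0.18 did not (unadjusted p 0.0386, adjusted p 0.337). The labels did not overlap in either culture. The interaction was -1.17 ± 0.26 (adjusted p 0.156). Cd52 counts were fractional in all 12 libraries.

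Pmepa1, a TGF-β target that restrains the same pathway, was the member of the TGF-β list with the smallest interaction p. It read 100.5, 147 and 163 CPM against 54.7, 78.7 and 69.9 CPM in Tfh_1, a called difference of -1.01 ± 0.23 (adjusted p 0.0244). In Tfh_5 it read 274, 269 and 303 CPM against 298, 296 and 245 CPM, higher than every Tfh_1 library under both labels. The interaction of 1.01 ± 0.32 had an unadjusted p of 0.00364 and an adjusted p of 0.491, and no alternative called it. Sh3bp5, a regulator of JNK and Rab11, had 0 counts in Cre-negative Tfh_1 and 28.7, 5.74 and 4.82 CPM in Cre-positive Tfh_1, at least 104-fold higher, against 4.53 and 18 CPM in Tfh_5.

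**Figure D4:**
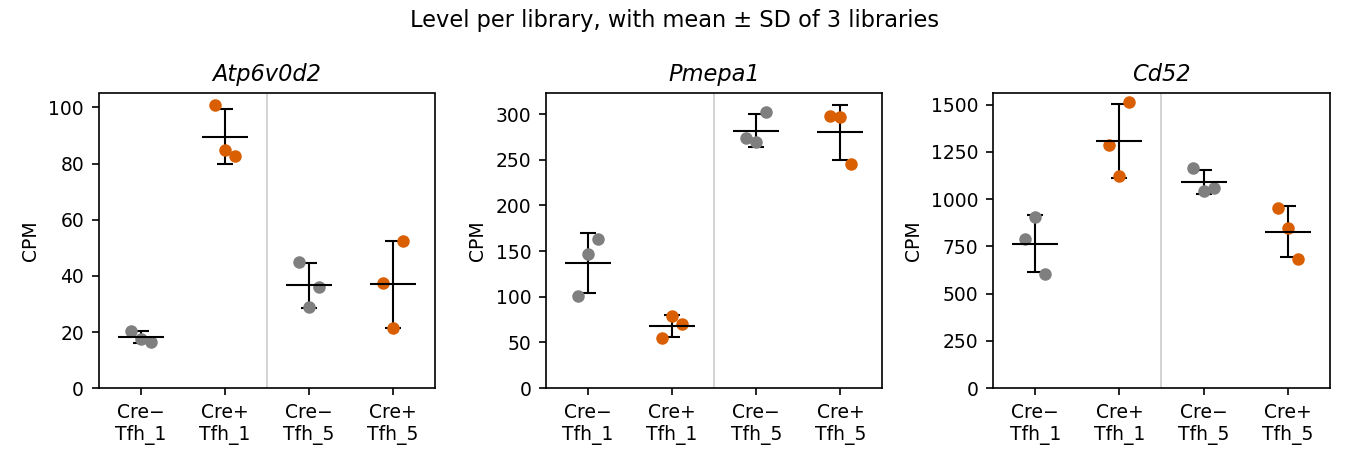
Level per library (points, CPM on a linear axis from 0) of Atp6v0d2, Pmepa1 and Cd52 by genotype label and culture, with the mean and SD of 3 libraries in black. Each was called between labels in Tfh_1 and not in Tfh_5: Atp6v0d2 averaged 18.2 and 89.5 CPM in Tfh_1 and 36.6 and 37 CPM in Tfh_5. None passed the interaction test.

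Of the 43 genes called in both cultures, 35 had an unadjusted interaction p of 0.05 or more. Among them, Il2ra, the high-affinity IL-2 receptor chain, read 832, 609 and 697 CPM against 207, 217 and 248 CPM in Tfh_5 and 501, 532 and 603 CPM against 201, 267 and 228 CPM in Tfh_1. Its differences were -1.67 and -1.23, and the interaction -0.44 had a 95% interval of -0.98 to 0.11. Plekho1, an adaptor of the cytoskeleton, was higher under the Cre-positive label by 4.20 in Tfh_5 and 4.35 in Tfh_1, with an interval of -1.78 to 1.47 for the interaction. Sox4, a transcription factor that TGF-β induces, was at 16.5 and 451 CPM in Tfh_5 and 1.82 and 24 CPM in Tfh_1. Its log2 differences were 4.78 and 3.74, and the interval of the interaction was -0.77 to 2.85. Il24, a cytokine of the IL-10 family, was at 80.6 CPM in Cre-negative Tfh_1 and 23 in Cre-negative Tfh_5, and had 7 and 1 counts over the Cre-positive groups.

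The other 8 had an unadjusted interaction p under 0.05, and Lgals3, Lsp1, Klf2 and Pou2af1 were among them. Lsp1, an actin-binding protein of leukocytes, was at 17.4 and 144 CPM in Tfh_1 and 37.5 and 122 in Tfh_5, with an interaction of -1.35 ± 0.45 (adjusted p 0.558). Klf2, which holds T cells in a resting, recirculating state, read 47.9, 35.7 and 55.6 CPM and 56.4, 48.1 and 29.5 CPM under the Cre-positive label in Tfh_1 and Tfh_5 and at most 3.27 CPM under the Cre-negative label. Pou2af1, the coactivator OCA-B, read 0 in all 3 Cre-negative Tfh_1 libraries, 47.3, 31.3 and 35.1 CPM in Cre-positive Tfh_1 and 109, 120.1 and 109 CPM in Cre-positive Tfh_5. Neither Klf2 (adjusted p 0.456) nor Pou2af1 (adjusted p 0.278) passed the interaction test.

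A panel of helper T cell genes was read whatever its values. Il17a, the Th17 cytokine, averaged 103 to 153 CPM over the 4 groups and had an interaction of -0.18 (-0.97 to 0.60). Il21, the Tfh cytokine, was at 125 and 212 CPM in Tfh_1 and 101 and 112 CPM in Tfh_5, with an interaction of -0.61 (-1.35 to 0.13). Icos, the costimulator that Tfh cells need, had a difference of 1.10 in Tfh_5, which passed the test, and of 1.04 in Tfh_1 (adjusted p 0.0902), an interaction of 0.06 (-0.74 to 0.86). The intervals for Pdcd1 (-0.55 to 1.77), which encodes PD-1, for the transcription factor genes Tox (-0.90 to 3.61) and Id3 (-0.42 to 2.63), and for the follicle-homing receptor gene Cxcr5 (-2.15 to 7.32) also included 0. 2 more genes of the panel were lower under the Cre-positive label in both cultures' means. Dclk1, a doublecortin-like kinase gene, read 28.7, 29 and 26.7 CPM against 0.231, 0 and 0 CPM in Tfh_1 and 64.2, 32.1 and 25.5 CPM against 0, 8.36 and 0.721 CPM in Tfh_5. Its interaction was 4.34 with an interval of 1.01 to 7.67 that excluded 0 (unadjusted p 0.0133, adjusted p 0.571), a fitted value that rests on 2 counts in Cre-positive Tfh_1. Ebf1, a B-lineage transcription factor gene, read 18.5, 14.5 and 22.6 CPM in Cre-negative Tfh_1 and 10.3, 2.5 and 8.76 CPM in Cre-negative Tfh_5, with 0 and 2 counts over the Cre-positive groups (unadjusted interaction p 0.0885). For the panel genes whose interval included 0, a difference between cultures was not detectable at this depth, which does not show that the cultures were alike.

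**Figure D5:**
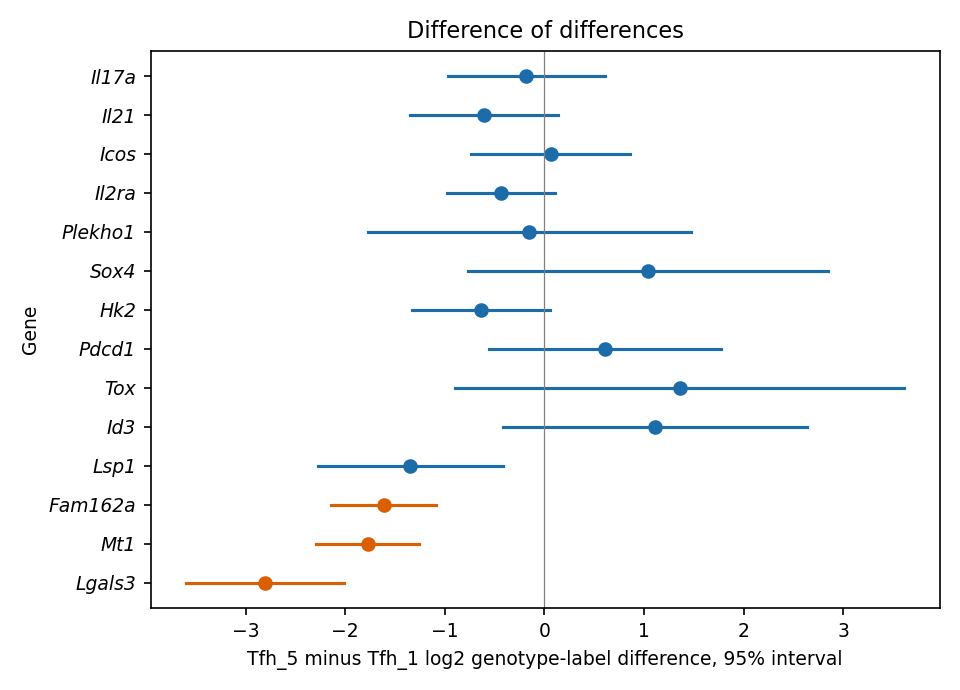
Difference of differences (Tfh_5 minus Tfh_1, log2) with its 95% interval for 14 genes: the 3 that passed the test in orange and 11 others in blue. The orange intervals lie wholly below 0, from -3.59 to -2.01 for Lgals3 to -2.15 to -1.08 for Fam162a. Of the blue ones drawn only that of Lsp1, -2.27 to -0.42, excludes 0, without passing the adjusted threshold. Of the panel genes not drawn, Klf2 (1.75 to 7.23), Pou2af1 (-9.14 to -2.91) and Dclk1 (1.01 to 7.67) also had intervals that exclude 0. Each rests on a group near 0: 1 count in Cre-negative Tfh_5 for Klf2, 0 in Cre-negative Tfh_1 for Pou2af1 and 2 in Cre-positive Tfh_1 for Dclk1. With a floor of 3 counts per group, the fitted 4.49 of Klf2 became 3.38 and the -6.03 of Pou2af1 became -3.08. None of these genes passed either, and the intervals of Il24, Ebf1 and Cxcr5, also not drawn, include 0.

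The other lists are given by their counts and medians. Over all genes the median was 0.01, and 5398 of 10864 had a negative interaction. The shares of all genes at the unadjusted threshold were 4.08% lower and 2.6% higher. Of 24 cholesterol synthesis genes, 17 had a negative interaction, and the median was -0.54. Cyp51 (-0.64) and Msmo1 (-0.79) were the 2 lower at the unadjusted threshold. In Tfh_5, 4 of the 24 were called lower, against 1.57% of all genes, and in Tfh_1 none, against 0.193%. The interferon list had 15 of 20 below 0 with a median of -0.47, with Ly6a lower and Socs1, a brake on cytokine signalling, higher (1.58) at the unadjusted threshold. Among T cell receptor activation genes the median was 0.47, and 2 of 20 were higher at the unadjusted threshold: Nr4a1, the immediate early nuclear receptor, read 0.729, 3.55 and 1.41 CPM against 13.5, 4.3 and 55 CPM in Tfh_5 and 13.7, 18.3 and 35.6 CPM against 22.4, 43.2 and 30.1 CPM in Tfh_1. The MAP kinase phosphatase gene Dusp2 (1.09) was the other. Tnfrsf9, which encodes 4-1BB, was lower (-0.68).

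The Tfh list (23 tested, median 0.06) had 2 members lower at the unadjusted threshold, Pou2af1 and Batf, and none higher. Pou2af1 was higher under the Cre-positive label in both cultures, at 0 and 37.9 CPM in Tfh_1 and 3.16 and 113 CPM in Tfh_5. Its negative interaction rests on the 0 counts of Cre-negative Tfh_1. Batf, a partner of c-Maf at AP-1 and IRF sites, was at 131 ± 23.7 and 64.6 ± 16.6 CPM (SD, n = 3) in Tfh_5 and 75.1 ± 9.45 and 72.8 ± 11.5 in Tfh_1, called in Tfh_5 alone (adjusted p 0.0403), with an interaction of -0.97 ± 0.38 (adjusted p 0.608). Il21r, the IL-21 receptor, read 245, 207 and 221 CPM against 100.2, 67.3 and 49.5 CPM in Tfh_5, a called difference of -1.63 ± 0.27, and had an interaction of -1.18 ± 0.38 (adjusted p 0.491). Gadd45g, a stress sensor that feeds p38, was at 67.6 and 16.1 CPM in Tfh_5 and 50.9 and 49.8 in Tfh_1, with an interaction of -2.05 ± 0.61 (adjusted p 0.458).

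Of the naive and memory list (22 tested, median 0.22), 1 member, Il7r, was lower and 3 higher at the unadjusted threshold. Il7r, the IL-7 receptor chain, was at 172 and 66.4 CPM in Tfh_5 and 132 and 111 in Tfh_1. Btg1, an antiproliferative gene of quiescent lymphocytes, was at 25.1 and 85.9 CPM in Tfh_5 and 42.4 and 54.8 in Tfh_1, with an interaction of 1.40 ± 0.47 (adjusted p 0.562). The proliferation list had 2 of 39 higher, Mcm7 (0.85) and Plk1 (0.96), and a median of 0.12. Among CD4 T cell genes, Cd4 (0.77) and Cd247 (1.04), the CD3 zeta chain, were higher and Thy1 (-0.85) lower at the unadjusted threshold.

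The remaining lists had these counts. Th2 genes had 6 of 7 tested members below 0 and a median of -0.73, the same as that of the glycolysis list to 2 decimals, with 1 lower at the unadjusted threshold. Of 18 Th17 genes 11 were below 0 (median -0.15), and Tmem176a (-1.47) and Ltb4r1 (-1.04), the leukotriene B4 receptor gene, were lower at that threshold. The 22 IL-2 and STAT5 response genes had a median of 0.14, with 1 lower, Nfil3 (-1.91), a transcription factor gene, and 3 higher, Socs1, Lif and Gzmb, of which the last had 0 counts in Cre-positive Tfh_1. IL-6 and STAT3 response genes (15 tested, median -0.20) had 2 lower and 1 higher, which was Maf itself. The interaction of Maf was 6.04 (1.70 to 10.37, unadjusted p 0.0105, adjusted p 0.571), and it passed in 1 of 21 alternatives, that with no count filter. This fitted value rests on 0 counts in Cre-negative Tfh_5, and with a floor of 3 counts it was 3.03. TGF-β response genes (19 tested, median 0.13) had 1 lower and 1 higher. Regulatory T cell (13 tested, median -0.09), chemokine receptor and migration (23, -0.11) and p53 and apoptosis genes (22, -0.05) each had 1 lower and none higher. Th1 (13, 0.15) and amino acid supply genes (17, -0.01) had 1 higher and none lower, and secreted mediators (22, -0.08) 2 higher and none lower. Reported c-Maf targets (9, 0.06), coinhibitory receptors (10, 0.47), fatty acid synthesis (14, -0.20) and CD8 T cell markers (5, 0.13) had none in either direction.

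Sums of genes from other cell types varied by group. The 16 B cell genes summed to 49.7 to 75.7 CPM in Cre-negative Tfh_5 and 15 to 24.8 CPM in Cre-positive Tfh_5. In Tfh_1 the sums were 131 to 162 and 91.9 to 119 CPM. H2-Ab1, a class II MHC chain and the member with the highest level, read 65.3, 40.9 and 56 CPM against 17.7, 15.2 and 5.04 CPM in Tfh_5 and had an interaction of -1.77 ± 0.48 (adjusted p 0.332), and its partner chain H2-Aa was below 1 CPM in every group. The NK and innate lymphoid list, mostly Il7r, summed to 136 to 267 and 59 to 74.6 CPM in Cre-negative and Cre-positive Tfh_5, with Ncr1 and Fcer1g at 0. The part of such cells in the interaction was not tested.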

How the data were processed

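The deposited values are expected counts per gene without normalization. The submitters' processing notes name STAR 2.7.2b, featureCounts 1.6.4 and the build mm10. Libraries came from 50 ng of RNA by a 3′ kit, per the labels' protocols. In the files 11.7% to 18.1% of values per library are not whole, so a read could count for more than 1 gene in part. The sources used here do not say how such reads were split or if counting used strand, and near copies, overlapping and antisense genes are therefore uncertain. The planned test assumed whole counts, and values were rounded. Of 27179 Entrez identifiers, 25275 were named through RefSeq's GRCm38.p6 table.

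The 12 libraries were fitted with edgeR 4.0.16 (R 4.3.3): TMM factors (0.894 to 1.161), filterByExpr, robust quasi-likelihood, 1 mean per group. P-values were adjusted by Benjamini-Hochberg over 10864 genes, of which 2386 had whole values in all 12 libraries. CPM are rounded counts over the effective library size, and an SE is the log2 difference divided by the square root of F. The common biological coefficient of variation was 0.815. A group with 0 counts allows up to 3 counts, and such floors cover counting error only. Simulated whole counts, with interactions set only in genes averaging 10 CPM or more, were run through the same fit. Such a run cannot speak for fractional counts or for interactions in genes below that level.

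Genes named are Maf, every gene past the interaction test at 10 CPM or more, then, up to 24, those called in 1 culture by smallest interaction p, up to 3 per list with an unadjusted interaction p under 0.05, and a panel of lineage genes. Vegfa, Pfkp, Slc16a3, Eno1, Pkm, Gapdh, Hif1a, H2-Aa, Paxbp1 and Pccb were named after their values were seen. Members and all 28 gene lists (557 of 564 entries matched) were chosen with earlier results of these data known. Alternatives were DESeq2 1.42.0, limma-voom (limma 3.58.1), RLE factors, no or a stricter filter, all 18 libraries, a block, leaving out the 2 most abundant identifiers, cutting fractions down, and leaving out each library. The 6 libraries of the treatment Tfh_A entered the fit of all 18 libraries and no contrast.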

Additional observations from a re-analysis of the deposited data

Results flagged for a closer look

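The difference between genotype labels was unequal in the 2 cultures, by edgeR's test of the interaction itself, for 3 genes. Lgals3 had an interaction of -2.80 log2 units (Tfh_5 minus Tfh_1), with differences of -4.50 and -1.70 in the 2 cultures. For Mt1 the interaction was -1.77, with -2.15 in Tfh_5 and -0.38 in Tfh_1. Fam162a followed with -1.62, from -1.69 and -0.07. In all 3 each Cre-positive Tfh_5 library lay below the 9 other libraries. The 3 genes were picked by a test on these same libraries, and the share of all genes with this order was not counted. The order is therefore no separate support. Groups of 3 libraries are too small for a search for single outlying libraries.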

How the results depend on the processing

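The 3 interaction calls became 36 with DESeq2 (5 of them higher), 25 with no count filter (5 higher), 5 with limma-voom and 7 with all 18 libraries, and 3 to 12 with 1 library left out. The genes called in Tfh_5 went from 274 to 503 with DESeq2, and those in Tfh_1 from 64 to 203 with DESeq2, 121 with no filter and 100 with 18 libraries. Leaving out 1 library gave 183 to 271 and 29 to 114. The single gene confined to Tfh_5 became 16 with DESeq2, 13 with no filter, 3 with limma-voom and 5 with 18 libraries, and 1 to 8 without 1 library. The count confined to Tfh_1, 0, became 6 with DESeq2 and 3 with no filter, and stayed 0 in each leave-one-out fit. Of the 6 by DESeq2, 3 averaged under 10 CPM in every group; the others were Atp6v0d2, Paxbp1 and Pccb. The cause of these moves was not tested.

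The replicate numbers are 2, 4 and 5 under one label and 1, 3 and 6 under the other, in both cultures. Same-numbered libraries correlated at -0.019 to 0.022, and 2 of 6 correlated best with their own number. These values are deviations from means of 3 libraries over all tested genes, most of them noisy. They cannot show whether the numbers pair the libraries. A fit with a replicate block gave 4 interaction calls, the same 3 genes and Mt2.

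Of 67 named genes, 62 kept the sign of their interaction in every alternative. With limma-voom Il24 changed from -0.73 to 1.15 and Sox4 from 1.04 to -0.0275. With 1 library left out Il24 ran from -2.53 to 3.63, Il17a from -0.45 to 0.0710, Icos from -0.0868 to 0.30 and Plekho1 from -0.72 to 0.51. Counting the glycolysis and hypoxia list in each alternative was added after the data were seen.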
